A study of Mus musculus with 6 samples.

Results

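The genes described are the pore-forming and accessory subunits of potassium, sodium, calcium and pacemaker channels, measured by bulk RNAseq in mouse left ventricles 4 days after myocardial infarction (MI). They were taken by symbol: every listed gene whose name begins with Kcn, Cacna or Cacnb, with Hcn and a digit, or with Scn, a number and a final a or b. The rule found 121 of the 17556 genes in the table, of which 86 were potassium, 13 sodium, 18 calcium and 4 pacemaker subunits. They are named voltage-gated channel subunits here as a group, although the symbol rule also takes in 14 inward rectifiers, 11 two-pore leak subunits and 12 subunits of calcium- or sodium-activated potassium channels, most of which are not opened by voltage.

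There were 3 Cre-positive and 3 Cre-negative ventricles. All mice were siblings with both *Yap* alleles and 1 *Wwtr1* allele floxed, had permanent ligation of the left anterior descending artery at 6 to 10 weeks of age, and received a tamoxifen citrate diet from just after surgery. The Cre-positive mice carried MerCreMer, a tamoxifen-activated Cre recombinase, at the endogenous Periostin promoter, which is active in myofibroblasts, whereas the Cre-negative mice had wild-type Periostin. The recombinase is thus driven in *Postn*-expressing cells, whereas RNA was taken from whole ventricle, in which most of the channels named below are known from cardiomyocytes. The sex of the mice and whether any sample pooled animals are not given in the sources used here, so p-values measure only the spread between these samples.

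The heartbeat is driven by the ordered opening of these channels. Sodium channels carry the upstroke of the action potential, L-type calcium channels carry the plateau and trigger contraction, and several potassium currents end it and hold the resting potential, while hyperpolarization-activated (HCN) channels carry the pacemaker current of the sinoatrial node. After MI, remodelling of potassium currents is a known feature of surviving ventricular muscle, and fibroblasts, macrophages, endothelium and smooth muscle express channels of their own.

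Total estimated counts were between 13177888 and 14827579 per ventricle. For a count of 0, 3 counts are a rough upper limit from counting error only, and not a hard maximum. They were worth between 0.202 and 0.228 counts per 1000000. The targeted transcripts, *Yap1* and *Wwtr1*, were not lower in the Cre-positive ventricles. *Yap1* was at 44.2, 46.3 and 44.4 transcripts per 1000000 (TPM) in Cre-negative replicates 1, 2 and 3 and at 50.7, 49.0 and 48.9 TPM in Cre-positive replicates 1, 2 and 3 (edgeR quasi-likelihood test, adjusted p = 0.935), and *Wwtr1* at 39.3, 39.6 and 43.6 against 43.9, 45.8 and 47.4 TPM (adjusted p = 0.876). *Postn*, whose locus carries the recombinase, was at 452, 1015 and 1112 against 526, 636 and 586 TPM, with overlap. Its log2 fold change, Cre-positive over Cre-negative, was -0.66 (standard error 0.27, unadjusted p = 0.0438 and adjusted p = 0.714 in the same test). It was -0.939 without Cre-negative replicate 1 and -0.451 without Cre-negative replicate 3. Counts over a whole gene do not single out the floxed exons, so these values neither show nor exclude the deletion. The groups are named by their labels below, and each list of 6 values keeps the order of replicates just given.

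Of all 13817 genes tested, 1 differed between genotypes at an adjusted p under 0.05 (0.00724%), and it was not a channel subunit. Of the 121 channel subunits 80 had enough counts to be tested, and none of these 80 passed, with adjusted p between 0.714 and 0.998. At an unadjusted p under 0.05, 2 subunits were higher in Cre-positive ventricles (2.5%, against 2.85% of all genes tested) and 2 were lower (2.5%, against 2.98%), shares that are close to the background. 1 of the 2 higher ones, *Kcnma1*, passed the filter on low counts only through the Cre-positive ventricles, so that its difference was in part fixed by the filter. In no other tested subunit did a genotype lack a ventricle with that count. DESeq2 also called no subunit and gave, of 121 subunits, 2 higher (1.65%, against 1.92% of all genes) and 3 lower (2.48%, against 2.88%) at an unadjusted p under 0.05. The median standard error of a log2 fold change was 0.30 over the tested subunits and 0.18 over those with at least 10 TPM. This is the precision with which a gene can be compared between genotypes, and not that of levels between genes.

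The promoters of these genes could be read for the binding core of the TEAD factors, through which Yap and Wwtr1 act on DNA. RefSeq windows on GRCm38.p6, from 250 bases before to 50 bases after an annotated start, were found for 88 of the 121 subunits, with 123 windows in all. The letters CATTCC, or GGAATG on the other strand, stood in 20 of the 123 windows (16.3%) and in 14.7% of all 32851 windows of the same length, so the core was about as frequent in channel promoters as elsewhere. The 3 sequences below are the windows that hold the core, belong to a subunit with at least 10 TPM or with no overlap between genotypes, and lie on a chromosome that could be printed. Each gives the 250 bases before the start, 5′ to 3′ on the strand of the gene, with the core in capitals.
Kcna5, chr6:126535556-126535805, minus strand: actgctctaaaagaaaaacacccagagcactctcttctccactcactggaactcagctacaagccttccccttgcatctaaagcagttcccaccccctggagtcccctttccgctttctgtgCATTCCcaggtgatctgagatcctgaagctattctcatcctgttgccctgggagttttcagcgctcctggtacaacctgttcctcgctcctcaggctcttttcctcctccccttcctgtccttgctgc
Kcnk2, chr1:189402274-189402523, minus strand: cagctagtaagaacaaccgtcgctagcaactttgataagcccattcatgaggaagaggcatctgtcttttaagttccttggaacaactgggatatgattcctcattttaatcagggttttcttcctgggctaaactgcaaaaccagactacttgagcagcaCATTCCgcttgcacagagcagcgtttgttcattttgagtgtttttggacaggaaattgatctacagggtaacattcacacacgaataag
Kcnn4, chr7:24370013-24370262, plus strand: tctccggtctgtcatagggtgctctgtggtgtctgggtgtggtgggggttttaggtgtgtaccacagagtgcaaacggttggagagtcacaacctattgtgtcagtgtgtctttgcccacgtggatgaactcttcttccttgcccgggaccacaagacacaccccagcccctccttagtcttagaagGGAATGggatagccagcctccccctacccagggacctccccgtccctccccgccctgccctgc

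The core began 128 bases before the start in *Kcna5*, 89 bases before it in *Kcnk2* (in 1 of the gene's 4 windows) and 63 bases before it in *Kcnn4*, where it was on the other strand. None of these 3 genes passed the test between genotypes, and their values are given with their classes below. The letters TATAAA, or TTTATA on the other strand, were found in 5.69% of channel windows and 13.6% of all windows. A channel window held a median of 9 CpG pairs against 7 in all windows, and the median was 10 in the 23 windows of subunits with at least 10 TPM, 12 in the 31 of those between 1 and 10 TPM and 9 in the 69 of those under 1 TPM. A match of letters is a description of the sequence only.

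Levels between genes were compared in TPM, which is scaled per transcript length. The mean over the 6 ventricles was at least 10 TPM for 23 subunits, between 1 and 10 TPM for 36 and under 1 TPM for 62, and 14 subunits had no count in 3 or more ventricles. The 10 most abundant subunits, among them, in order, *Kcnk3*, *Kcng2*, *Kcnip2*, *Kcnj11*, *Kcnh2*, *Cacna2d1*, *Kcnq1* and *Hcn2*, held between 63.9% and 70.9% of the summed TPM of the 121 genes in each ventricle. Only *Kcnk3* stood clear of the gene after it, and every other pair of neighbours in this order of 10 overlapped in range. By family, potassium subunits summed to 878, 751 and 718 TPM in Cre-negative and 714, 673 and 725 TPM in Cre-positive ventricles. Sodium subunits summed to 204, 175 and 165 against 206, 181 and 166 TPM, calcium subunits to 161, 147 and 136 against 160.1, 144 and 149 TPM, and pacemaker subunits to 43.7, 31.9 and 31.6 against 40.4, 25.4 and 37.8 TPM. The groups overlapped in each family.

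**Figure D1:**
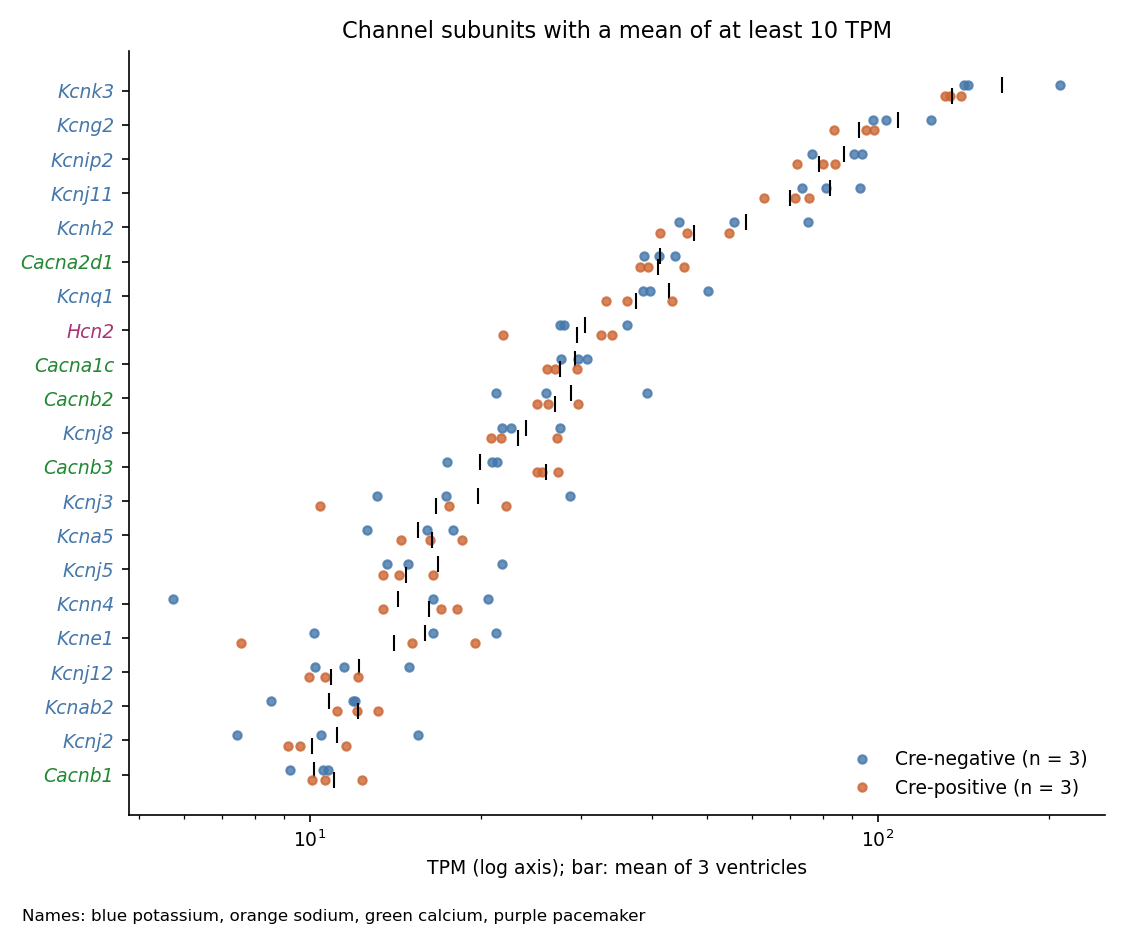
TPM of 21 of the 23 channel subunits with a mean of at least 10 TPM in 3 Cre-negative and 3 Cre-positive ventricles, on a log axis; each point is 1 ventricle and each bar the mean of 3. The levels span from means of 10.6 TPM for Cacnb1 to 100.3 TPM for Kcng2 and above it for Kcnk3, and a single Cre-negative ventricle stands apart from the other 5 for several genes, high for Kcnk3 and Cacnb2 and low for Kcnn4.

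The two-pore subunits make background potassium channels that set the resting potential. *Kcnk3* (chr5:30588170-30625270), an acid-sensitive member, was the most abundant of the 121 subunits, at 209, 142 and 144 TPM in Cre-negative and 131, 134 and 139.8 TPM in Cre-positive ventricles. Each Cre-positive value was below each Cre-negative one, and Cre-negative replicate 1 was far above the other 5 ventricles. The log2 fold change, Cre-positive over Cre-negative, was -0.43 (standard error (SE) 0.19, 95% interval -0.88 to 0.03, adjusted p = 0.714) and -0.155 without that ventricle. The next members were far lower. *Kcnk6* (chr7:29221928-29232522), of the TWIK group, was at 4.49, 7.51 and 8.21 against 7.73, 8.12 and 7.56 TPM, and *Kcnk13* (chr12:99963149-100062682), a halothane-inhibited member, at 3.0, 3.66 and 5.71 against 4.84, 4.98 and 4.74 TPM. In both genes Cre-negative replicate 1 was the lowest ventricle. *Kcnk2*, a stretch-sensitive leak channel, was at 1.68, 3.75 and 3.93 against 3.93, 4.34 and 4.20 TPM, with the same low ventricle (log2 fold change 0.31, SE 0.23, adjusted p = 0.724; 0.086 without it). *Kcnk5*, an alkaline-activated member, was at 0.94, 0.98 and 0.90 against 1.39, 1.43 and 1.23 TPM, so the groups did not overlap (log2 fold change 0.40, SE 0.25, adjusted p = 0.714). The other 6 of the 11 two-pore genes were too low to be tested.

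Non-overlap of normalized counts, which are counts scaled for library size and composition, was no more frequent among channel subunits than in the table. It was seen with higher Cre-positive values in 5 of 80 subunits, *Kcnk2*, *Kcnk5*, *Kcnma1* (which was tested only through its Cre-positive counts), *Cacnb3* and *Cacna1a* (6.25%, against 7.55% of all genes tested), and with lower values in 4, *Kcnk3*, *Kcnj11*, *Kcnd2* and *Kcnn2* (5%, against 6.85%). With 3 ventricles against 3, an exact two-sided permutation test of 1 gene cannot give a p under 0.1.

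The inward rectifiers pass potassium near the resting potential, and include the ATP-sensitive and acetylcholine-activated channels. *Kcnj11* (chr7:46097123-46100952), the pore of the ATP-sensitive channel of ventricular myocytes, was at 93.0, 80.9 and 73.6 against 71.6, 63.0 and 75.5 TPM, and its normalized counts were 2415, 1851 and 1719 against 1665, 1362 and 1630. The normalized counts did not overlap and the TPM values did (log2 fold change -0.36, SE 0.15, unadjusted p = 0.0418, adjusted p = 0.714; -0.205 without Cre-negative replicate 1). *Kcnj8* (chr6:142564837-142571614), the vascular pore of the same channel class, was at 22.6, 21.8 and 27.5 against 21.7, 20.8 and 27.3 TPM. *Kcnj11* exceeded *Kcnj8* by 2.68 to 4.12 times in the 6 ventricles. *Kcnj2* (chr11:111066164-111076825) and *Kcnj12* (chr11:61022564-61073269), which carry the classical inward rectifier current, had similar levels. *Kcnj2* was at 15.5, 10.5 and 7.45 against 9.63, 9.14 and 11.6 TPM and *Kcnj12* at 14.9, 11.5 and 10.2 against 10.6, 9.96 and 12.2 TPM, a ratio of 0.728 to 1.04. Both were highest in Cre-negative replicate 1. The pores of the acetylcholine-activated channel, best known from atrium, were *Kcnj3* (chr2:55411798-55598145), at 28.7, 17.4 and 13.1 against 22.1, 10.4 and 17.6 TPM, and *Kcnj5* (chr9:32314706-32344380), at 21.8, 14.9 and 13.7 against 16.5, 13.4 and 14.3 TPM. *Kcnj15*, known mainly from kidney, was at 2.50, 7.52 and 4.45 against 9.42, 8.42 and 6.57 TPM, with overlap (log2 fold change 0.66, SE 0.33, adjusted p = 0.714; 0.381 without Cre-negative replicate 1). Of the 10 inward rectifiers tested 3 had a log2 fold change above 0 and 7 below 0, with a median of -0.21, and the same 7 had a lower mean TPM.

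The Kv pore-forming class holds the delayed rectifier and transient outward channels together with silent subunits that only modify them. *Kcng2* (chr18:80294544-80364254), a silent subunit that assembles with Kv2 pores, was the second most abundant of the 121 subunits, at 124, 103 and 97.8 against 98.3, 95.3 and 83.7 TPM (log2 fold change -0.35, SE 0.15, unadjusted p = 0.0484, adjusted p = 0.714; -0.187 without Cre-negative replicate 1). The highest Cre-positive value lay just above the lowest Cre-negative one and the other 2 lay below it. *Kcnh2* (chr5:24319589-24351684), the pore of the rapid delayed rectifier, was at 75.2, 55.9 and 44.6 against 54.7, 41.4 and 46.1 TPM, and *Kcnq1* (chr7:143106877-143427050), the pore of the slow one, at 50.3, 38.6 and 39.7 against 43.4, 33.2 and 36.1 TPM. In each gene Cre-negative replicate 1 was highest and Cre-positive replicate 2 lowest. *Kcnq1* shares its locus with the antisense transcript *Kcnq1ot1*, and whether strand was used in counting is not given in the sources used here, so reads from the pair cannot be told apart. *Kcna5* (chr6:126532551-126535555), the ultrarapid delayed rectifier, was at 12.6, 17.9 and 16.1 against 14.5, 18.5 and 16.3 TPM, a log2 fold change of -0.03 (SE 0.12) that turned to 0.089 on the log2(TPM + 0.1) scale.

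The transient outward current, which shapes early repolarization in mouse, was represented by low pores and an abundant accessory subunit. *Kcnd2* (chr6:21215346-21729805) was at 5.23, 6.16 and 5.87 against 5.18, 3.88 and 6.03 TPM, and its normalized counts of 206, 218 and 207 against 182, 127 and 203 did not overlap (log2 fold change -0.30, SE 0.18, adjusted p = 0.714; -0.130 without Cre-positive replicate 2). *Kcnd3* (chr3:105451890-105674002) was at 3.98, 2.43 and 2.15 against 2.59, 2.29 and 2.78 TPM. *Kcna4* (chr2:107290589-107326804), the pore of the slowly recovering component, was at 1.10, 1.22 and 1.5 against 1.35, 1.34 and 1.01 TPM. *Kcnip2* (chr19:45792346-45816422), the calcium-binding subunit that brings Kv4 pores to the membrane, was at 93.9, 90.8 and 76.5 against 80.0, 72.0 and 84.1 TPM (log2 fold change -0.28, SE 0.14, adjusted p = 0.714; -0.160 without Cre-negative replicate 1). It exceeded the sum of *Kcnd2* and *Kcnd3* by 9.54 to 11.7 times. Although its parts varied, this ratio differed little between ventricles: it was 10.2, 10.6 and 9.54 in Cre-negative and 10.3, 11.7 and 9.55 in Cre-positive ventricles. *Kcna3*, the lymphocyte and macrophage Kv channel, was at 0.21, 0.07 and 0.07 against 0.54, 0.27 and 0.48 TPM and had too few counts to be tested.

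Among the other Kv accessory subunits, *Kcne1* (chr16:92346001-92359468), the partner of *Kcnq1* in the slow delayed rectifier, was at 10.2, 16.5 and 21.3 against 7.57, 15.2 and 19.5 TPM. Its order over the ventricles was not that of *Kcnq1*, so that *Kcnq1* exceeded *Kcne1* by 4.95 and 5.74 times in replicate 1 of the 2 genotypes and by 1.85 to 2.34 times in the other 4 ventricles. *Kcnab2* (chr4:152390744-152477549), a cytoplasmic beta subunit, was at 8.55, 12 and 11.9 against 11.2, 13.2 and 12.1 TPM. *Kcne4*, an inhibitory member of the *Kcne* family, was at 5.21, 6.72 and 7.87 against 7.34, 10.3 and 8.04 TPM, and *Kcne3* at 1.06, 1.19 and 0.85 against 2.45, 3.89 and 1.04 TPM. Cre-positive replicates 1 and 2 were high for *Kcne3* and replicate 3 was within the Cre-negative range. Since 1 Cre-negative and all 3 Cre-positive ventricles reached the minimum count of 10, the gene would not have been tested without the higher group, and its values are given as a description.

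The calcium- and sodium-activated potassium channels link the membrane to intracellular ions. *Kcnn4* (chr7:24369826-24385212), the intermediate-conductance channel known from immune cells and fibroblasts, was at 5.75, 16.5 and 20.6 against 13.4, 18.2 and 17.1 TPM, with Cre-negative replicate 1 far below the other 5 ventricles. The sum of the macrophage markers was also lowest in that ventricle, as were 5 of its 6 genes (*Mrc1* was not), with a summed level of 2372 to 3862 TPM in Cre-negative and 3193 to 3673 TPM in Cre-positive ventricles, and the sum of the fibroblast markers was lowest there too, as were 5 of its 7 genes (*Dcn* and *Pdgfra* were not), with 3843 to 6260 and 5899 to 6658 TPM. Of 6 macrophage markers 3 were above and 3 below 0 in log2 fold change, of 7 fibroblast markers 5 were above and 2 below, and none was at 0 TPM in all ventricles. In mean TPM 5 macrophage markers were higher and 1 lower, and 6 fibroblast markers were higher and 1 lower. Their part in the *Kcnn4* level was not tested. The small-conductance channels *Kcnn1* (chr8:70843158-70865691) and *Kcnn2* (chr18:45268750-45685887) were at 12.1, 7.05 and 6.08 against 8.14, 6.93 and 6.34 TPM and at 8.34, 7.13 and 8.69 against 7.75, 4.10 and 7.66 TPM. Normalized counts of *Kcnn2* did not overlap, at 233, 183 and 179 against 172, 78.6 and 152 (log2 fold change -0.57, SE 0.28, adjusted p = 0.714; -0.294 without Cre-positive replicate 2).

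*Kcnma1* (chr14:23292288-24005110), the pore of the large-conductance calcium-activated channel of smooth muscle, had estimated counts of 4, 5 and 6 in the Cre-negative and 20, 13 and 12 in the Cre-positive ventricles, which is 0.09 to 0.13 and 0.24 to 0.33 TPM. All 3 Cre-positive ventricles were higher. No Cre-negative ventricle and all 3 Cre-positive ventricles reached the minimum count of 10, so the higher group decided that the gene was tested at all. Its fitted values, here (adjusted p = 0.714 in the edgeR fit) and in the counts and figure, are therefore a description and not a test result. Its beta subunit *Kcnmb1* (chr11:33962955-33973641) was more abundant, at 1.56, 2.92 and 3.38 against 1.54, 3.81 and 3.03 TPM, with a log2 fold change of -0.0030 (SE 0.34) that was 0.067 on the log2(TPM + 0.1) scale. The summed smooth muscle and pericyte markers were at 492 to 864 TPM in Cre-negative and 793 to 981 TPM in Cre-positive ventricles. Of the 5 markers 4 were above and 1 below 0 in log2 fold change, all 5 were higher in mean TPM, and none was at 0 TPM. Their part in the *Kcnma1* values was not tested.

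**Figure D2:**
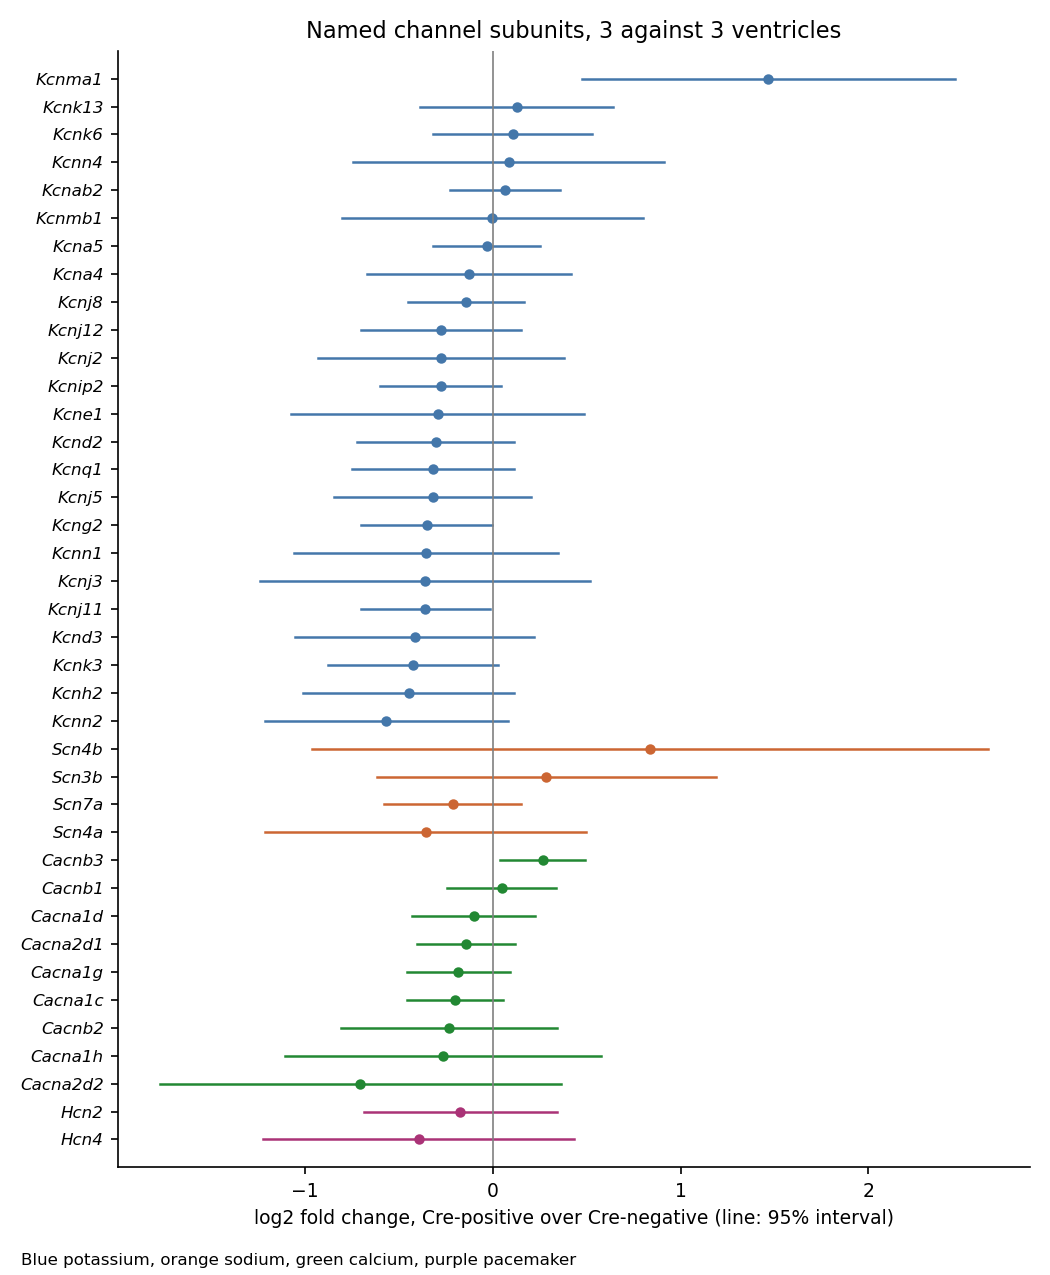
Log2 fold change of the 39 named and tested channel subunits, Cre-positive over Cre-negative ventricles (3 against 3), from the edgeR fit; points are estimates, lines are 95% intervals and colours are the families. The intervals of Cacnb3 and of Kcnma1, which passed the filter on low counts only through the Cre-positive ventricles, lie above 0 and those of Kcnj11 and Kcng2 just below it before adjustment, and all other intervals include 0.

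Sodium channels consist of a pore-forming alpha subunit with beta subunits that adjust gating and adhesion. Of the 9 alpha genes 6 were tested, with 2 above and 4 below 0 in log2 fold change, and 3 of the 4 beta genes were tested. *Scn7a* (chr2:66673426-66784910), an atypical sodium-sensing member, was at 6.62, 6.30 and 6.48 against 5.47, 5.21 and 7.49 TPM, and *Scn4a* (chr11:106317545-106365559), the skeletal muscle channel, at 5.56, 3.52 and 2.28 against 4.12, 3.28 and 2.37 TPM.

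Both beta subunits described were low and variable. *Scn4b* (chr9:45138624-45154155), which is associated with resurgent current and the conduction system, ranged 10.3-fold, at 2.56, 1.34 and 0.41 against 4.22, 3.62 and 0.62 TPM, with replicate 3 lowest in both genotypes (log2 fold change 0.84, SE 0.77, adjusted p = 0.759; 0.380 without Cre-negative replicate 3 and 0.375 without Cre-positive replicate 1). The summed conduction system markers were at 7.52 to 12.1 TPM in Cre-negative and 7.91 to 10.6 TPM in Cre-positive ventricles and had no such order. *Scn3b* (chr9:40269216-40291618) was at 1.72, 0.94 and 0.68 against 1.49, 1.16 and 1.73 TPM. Of the 9 sodium subunits tested, 5 were above and 4 below 0, with a median log2 fold change of 0.01.

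Calcium channels consist of an alpha1 pore, a cytoplasmic beta subunit and an extracellular alpha2delta subunit. *Cacna1c* (chr6:118587240-119197384), the L-type pore of the ventricle, varied 1.18-fold over the 6 ventricles, at 30.8, 29.6 and 27.6 against 26.1, 27.0 and 29.5 TPM. Its log2 fold change was -0.20 (SE 0.11, 95% interval -0.46 to 0.05, adjusted p = 0.714), and -0.111 without Cre-negative replicate 1. *Cacna1d* (chr14:30039941-30491156), the L-type pore of the sinoatrial node, was at 1.39, 1.58 and 1.79 against 1.57, 1.59 and 1.66 TPM. The T-type pores, which are prominent in fetal and nodal cells, were *Cacna1g* (chr11:94408391-94474400), at 7.52, 6.83 and 7.74 against 6.12, 7.21 and 7.52 TPM, and *Cacna1h* (chr17:25374285-25436334), at 5.21, 2.71 and 2.51 against 3.65, 2.18 and 3.68 TPM. *Cacna1a*, a pore best known from neurons, was at 1.24, 1.72 and 1.69 against 1.87, 1.94 and 2.24 TPM without overlap (log2 fold change 0.24, SE 0.16, adjusted p = 0.714; 0.154 without Cre-negative replicate 1). The neuron and glia markers were low, with sums of 3.89 to 6.63 and 3.71 to 7.94 TPM over the 5 of 6 markers in the table. Both tested members were below 0 in log2 fold change, while in mean TPM 1 was higher and 1 lower. The part of these markers in *Cacna1a* was not tested.

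*Cacna2d1* (chr5:15934264-16374511), the main alpha2delta subunit of the heart, was at 43.9, 41.2 and 38.8 against 45.6, 39.4 and 38.1 TPM, which is 1.29 to 1.75 times the level of *Cacna1c*. *Cacna2d2* (chr9:107399733-107529346) was at 2.30, 1.73 and 0.95 against 1.72, 0.68 and 0.93 TPM (log2 fold change -0.71, SE 0.46, adjusted p = 0.714; -0.340 without Cre-negative replicate 1 and -0.429 without Cre-positive replicate 2), and *Cacna2d3* at 0.04 to 0.53 TPM was not tested. The beta subunits were represented by a pair of nearly equal genes. *Cacnb2* (chr2:14603861-14988811), the principal cardiac beta subunit, was at 39.2, 26.1 and 21.3 against 29.6, 26.2 and 25.1 TPM. *Cacnb3* (chr15:98628436-98644536), known from smooth muscle and immune cells, was at 17.4, 21.4 and 21.0 against 27.4, 25.1 and 25.6 TPM, and each Cre-positive value was above each Cre-negative one (log2 fold change 0.27, SE 0.10, 95% interval 0.04 to 0.49, unadjusted p = 0.0273, adjusted p = 0.714). *Cacnb2* exceeded *Cacnb3* by 2.25 times in Cre-negative replicate 1, whereas the ratio was between 0.98 and 1.22 in the other 5 ventricles. *Cacnb1* (chr11:98001508-98023034), the skeletal muscle beta subunit, was at 9.22, 10.8 and 10.5 against 12.3, 10.1 and 10.6 TPM. Of the 13 calcium subunits tested 5 were above and 8 below 0, with a median of -0.10 that was 0.023 on the log2(TPM + 0.1) scale.

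The pacemaker channels were led by *Hcn2* (chr10:79716634-79736108), the isoform known from ventricle, at 36.1, 27.6 and 28.0 against 34.1, 21.9 and 32.5 TPM (log2 fold change -0.17, SE 0.22, adjusted p = 0.818). *Hcn4* (chr9:58822949-58863175), the main isoform of the sinoatrial node, was at 5.35, 2.73 and 2.29 against 3.03, 2.62 and 3.01 TPM, and *Hcn2* exceeded it by 6.75 to 12.2 times. *Hcn3* had a mean of 0.142 TPM and was not tested. *Hcn2* and *Hcn4* overlapped between genotypes, with Cre-negative replicate 1 highest for each.

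Markers of neighbouring tissues differed between ventricles. The atrial markers *Myl7*, *Sln* and *Myl4* summed to 1307, 956 and 171 TPM in Cre-negative and 2196, 55.0 and 451 TPM in Cre-positive ventricles, 2 above and 1 below 0 in log2 fold change and none at 0 TPM. *Kcnj3* was lowest in Cre-positive replicate 2, next lowest in Cre-negative replicate 3 and highest in replicate 1 of each genotype. The atrial markers were lowest in the same 2 ventricles and highest in replicate 1 of each genotype. The skeletal muscle markers *Myh4*, *Myh1*, *Tnnt3* and *Mylpf* summed to 16.5, 17.2 and 12.5 against 123, 13.8 and 13.7 TPM, and *Cacna1s*, the skeletal muscle L-type pore, was at 1.91, 1.73 and 1.53 against 3.17, 1.83 and 2.08 TPM, also highest in Cre-positive replicate 1, while the other 5 ventricles did not follow the order of the markers. *Scn4a* was highest in Cre-negative replicate 1. *Myh4* was at 0.75 TPM in Cre-positive replicate 1 and at 0 TPM in all other ventricles. The part of either tissue in these channel levels was not tested.

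**Figure D3:**
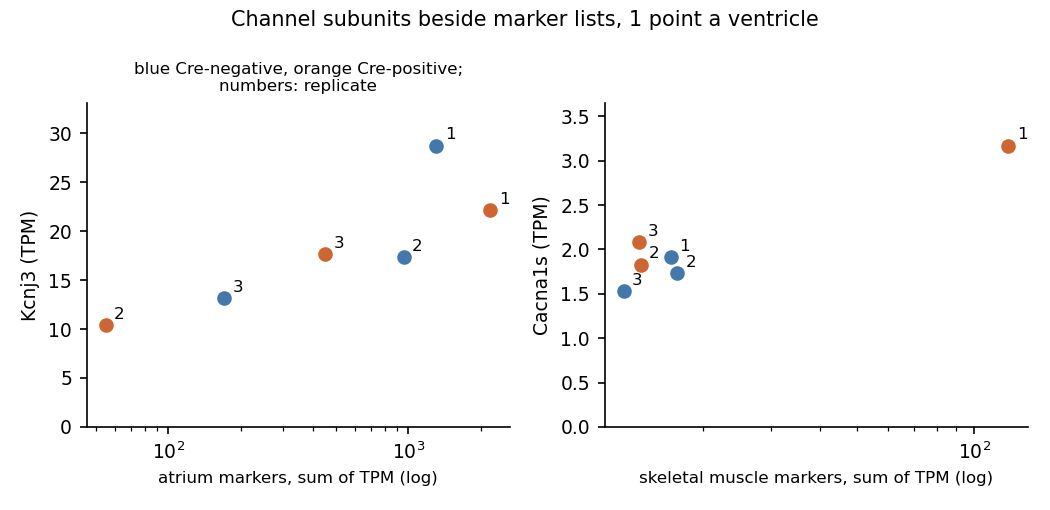
TPM of Kcnj3 against the summed TPM of 3 atrial markers, and of Cacna1s against the summed TPM of 4 skeletal muscle markers, on log horizontal axes; each of the 6 points is 1 ventricle, blue Cre-negative and orange Cre-positive, numbered by replicate. Cre-positive replicate 2, with 55.0 TPM of atrial markers, has the lowest Kcnj3, and Cre-positive replicate 1, with 123 TPM of skeletal muscle markers, has the highest Cacna1s.

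Single ventricles stood apart within each genotype. In normalized counts Cre-negative replicate 1 was the highest of the 6 ventricles for 31 of the 80 tested subunits (38.8%, against 30.8% of all genes tested), and for 15 of the 23 with at least 10 TPM. These included *Kcnk3*, *Kcnh2*, *Kcnj11*, *Kcnip2*, *Cacna1c*, *Cacnb2* and *Hcn2*, which are subunits of myocyte currents. It was the lowest for 17 (21.3%, against 32.1%), among them *Kcnn4*, *Kcna5*, *Kcne4*, *Kcnk6*, *Kcnab2* and *Cacnb3*. Cre-positive replicate 2 was the lowest for 25 (31.3%, against 18.0%), and for 11 of the 23. The summed neutrophil markers were highest in Cre-negative replicate 1, with 413, 85.9 and 48.4 TPM against 156, 66.6 and 128 TPM, as were 4 of the 5 genes, while *Csf3r* was lowest there. The summed endothelial markers were lowest there, at 329 TPM against 399 to 472 TPM in the other 5 ventricles, as were 3 of the 4 genes (*Kdr* was not), and T cell markers were at 2.10 to 5.60 and 2.53 to 8.74 TPM. Without it, the log2 fold change changed sign for 13 of the 39 named and tested subunits and became over 1.5 times smaller for another 13. Without Cre-positive replicate 2 these numbers were 1 and 10. What set these ventricles apart was not tested.

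**Figure D4:**
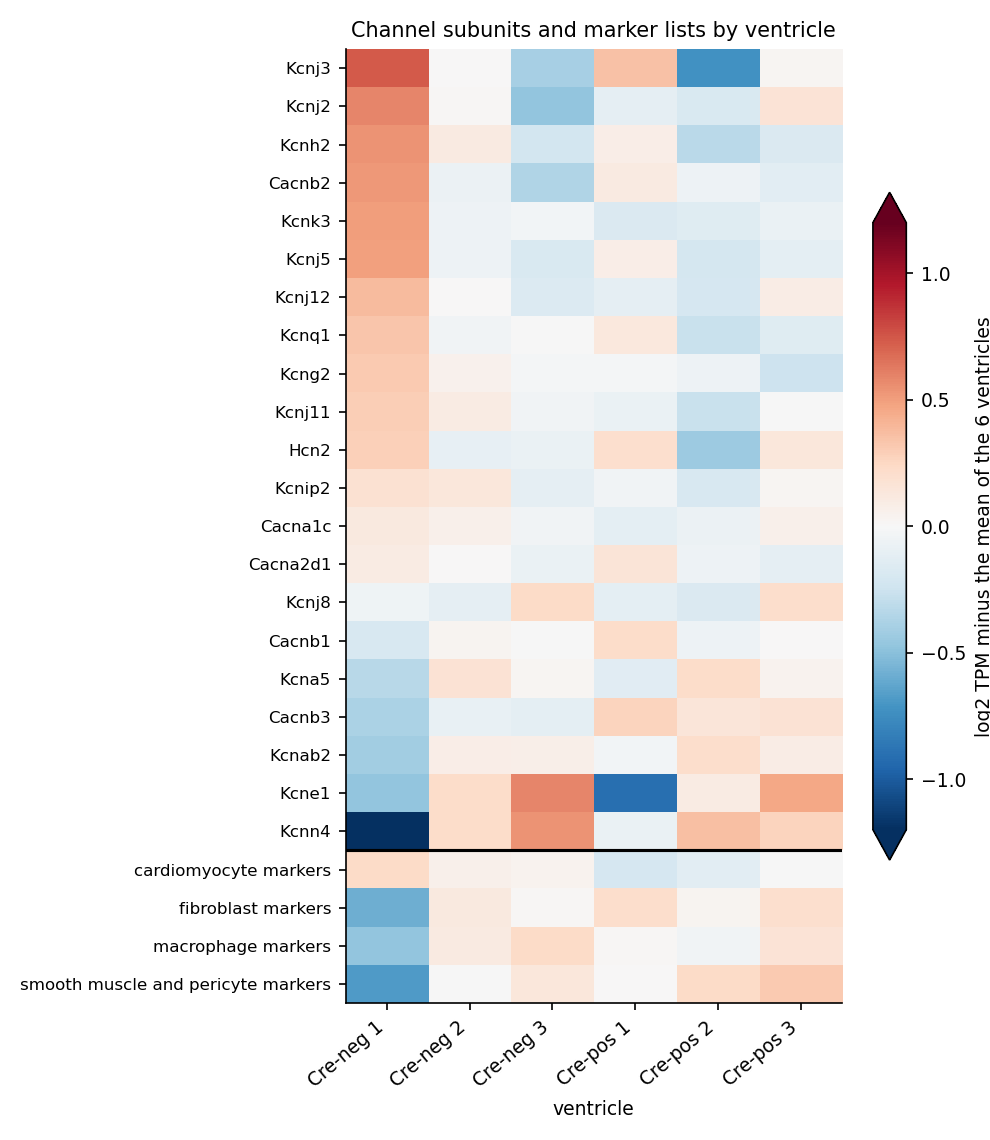
Log2 TPM of 21 of the 23 channel subunits with at least 10 TPM and, under the line, of the summed markers of 4 cell types, each as a difference from its mean over the 6 ventricles (colour scale, log2 units); columns are ventricles. Cre-negative replicate 1 is above the mean for most subunits and for the cardiomyocyte markers and below it for Kcnn4, Kcne1, Kcnab2, Cacnb3, Kcna5, Cacnb1 and Kcnj8 and for the fibroblast, macrophage and smooth muscle markers.

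The summed cardiomyocyte markers were at 35537, 31792 and 31304 TPM in Cre-negative and 26464, 27893 and 30241 TPM in Cre-positive ventricles. The sums did not overlap, but several single markers did. In normalized counts *Myl2*, *Tnnt2*, *Tnni3* and *Actn2* were lower in every Cre-positive ventricle, as were 6.85% of all genes tested. *Myh6*, *Mybpc3*, *Ttn* and *Ryr2* overlapped, and in TPM *Myl2* and *Tnni3* overlapped as well. All 8 markers had a log2 fold change below 0, with a median of -0.28, of which 1 was at an unadjusted p under 0.05, none passed adjustment and none was at 0 TPM, while *Ttn* was higher in mean TPM and the other 7 were lower. In TPM 6 of the 8 were highest in Cre-negative replicate 1, and without that ventricle 6 were below 0 and *Ttn* and *Ryr2* above it, with a median of -0.100. Of the 23 subunits with at least 10 TPM 18 were also below 0, and 17 of them had a lower mean TPM, whereas without Cre-negative replicate 1 the number below 0 was 16. Over all 80 tested subunits 36 were above and 44 below 0, with a median log2 fold change of -0.03, beside 7077 above and 6740 below and a median of 0.0062 over all genes tested. In mean TPM, which is not adjusted for library composition, 46 subunits were higher and 34 lower. Of the 55 potassium subunits 25 were above and 30 below 0, with a median of -0.03 that was 0.089 on the log2(TPM + 0.1) scale. The part of the cardiomyocyte markers in the channel values was not tested, and in bulk RNA fewer cells of a type and less RNA per cell cannot be told apart.

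The proteins that channels work with were read from a list of 32 genes, 29 of which were tested. In log2 fold change 10 were above and 19 below 0, with a median of -0.11 (16 higher and 13 lower in mean TPM), none at an unadjusted p under 0.05 and adjusted p between 0.714 and 0.998. The sulfonylurea receptors that complete ATP-sensitive channels were present for both pores, *Abcc9* at 47.0, 43.1 and 41.6 against 44.4, 49.8 and 49.5 TPM and *Abcc8* at 16.9, 17.2 and 15.8 against 17.5, 15 and 15.5 TPM. *Rrad*, a small GTPase that inhibits L-type channels, was abundant, at 347, 287 and 327 against 354, 322 and 335 TPM. *Fgf13*, an intracellular modulator of sodium channels, was at 34.6, 31.7 and 33.7 against 32.6, 28.7 and 28.1 TPM (log2 fold change -0.25, SE 0.12, adjusted p = 0.714), whereas the related *Fgf12* was at 3.15, 2.23 and 0.32 against 6.05, 0.22 and 1.05 TPM, in the order of the atrial markers. *Fxyd1*, which regulates the sodium pump, was at 1699, 1408 and 1236 against 1291, 1121 and 1221 TPM (log2 fold change -0.39, SE 0.17, adjusted p = 0.714; -0.193 without Cre-negative replicate 1).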

How the data were processed

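RNA from left ventricles was extracted with TRIzol, and libraries were made by BGI Americas. The submitters' processing notes name Bowtie2 2.2.5, RSEM 1.2.12 and GRCm38.p6. The deposited values of each gene are an expected count, of which 11.46% are not whole numbers because RSEM divides shared reads (115 of the 121 channel subunits had whole counts in all ventricles), and a TPM value scaled by the authors to transcript length and library. Deposited FPKM values and the columns of a genotype comparison by the authors (log2 fold change, p-value) were not used. All 6 ventricles had their columns (0 unmatched).

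Rounded expected counts went into edgeR 4.0.16 (R 4.3.3), with filterByExpr (minimum count 10, minimum total 15), TMM scaling, and the quasi-likelihood test without covariates, adjusted by Benjamini-Hochberg over 13817 genes (threshold 0.05). Normalized counts are TMM-scaled. The test was tested on simulated data. Permutation tests were exact and used TPM. limma 3.58.1 and DESeq2 1.42.0 were alternatives. Positions and promoters are from RefSeq (GRCm38.p6), and figures from matplotlib 3.10.9. Values were given for subunits past the threshold (none), for up to 12 at an unadjusted p under 0.05, for the 3 most abundant of each class and for a list of subunits of known currents, 41 in all; a few further subunits are counted but not reported singly here. Members, lists and this rule were chosen with earlier results of these data known. The promoters printed, and *Kcnk2*, *Kcnk5*, *Kcnj15*, *Kcne3*, *Kcne4*, *Cacna1a*, *Cacna1s* and *Hcn3*, were chosen after their values were seen.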

Additional observations from a re-analysis of the deposited data

How the results depend on the processing

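No channel subunit passed the threshold under any setting run, with a lowest adjusted p of 0.509 among the 39 named genes refitted. Subunits at an unadjusted p under 0.05 were 4 higher and 4 lower of 121 with no filter (3.31% each, against 2.59% and 2.82% of all genes) and 1 higher and 1 lower of 52 with a mean of at least 50 counts (1.92% each, against 3.03% and 2.97%). None was lower in limma on log2(TPM + 0.1) or log2(TPM + 1), where the values were 0 and 0 (0.861% of all genes in each), 3 and 2 were higher (3.75% and 2.5%, against 6.17% and 6.37%) and the median of all genes moved to 0.125 and 0.109. Leaving out 1 ventricle at a time gave 1 to 3 higher and 0 to 5 lower (all genes 1.76% to 4.07% and 0.923% to 5.54%). Without Cre-negative replicate 1 only *Kcnma1* remained (all genes then 3.58% higher and 3.01% lower). In the main fit *Kcnma1* passed the filter on low counts only through the Cre-positive ventricles, so its remaining here is no sign of a stable difference. Genes called over the whole table numbered 5 with DESeq2, 2 and 2 with limma on TPM, 0 with the replicate block and 0 to 2 when leaving out a ventricle. The median potassium log2 fold change was 0.089 on log2(TPM + 0.1) and -0.090 to 0.072 when leaving out a ventricle, and the calcium median 0.023 and 0.014 on the TPM scales.

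The replicate numbers were not taken as pairs, since ventricles with the same number had correlations of 0.354, 0.0726 and -0.0318. With the replicate block 4 subunits were higher (5%, against 3.78% of all genes) and 7 lower (8.75%, against 5.03%) at an unadjusted p under 0.05, and no subunit was called.

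Of 504 values for single genes 477 kept their direction and 27 in 17 genes changed sign. On the TPM scales (pseudocounts 0.1 and 1) these were *Cacna1d* (0.023, 0.014), *Kcna5* (0.089, 0.084) and *Kcnmb1* (0.067, 0.055). Leaving out a ventricle gave, in log2 fold change, -0.477 to 0.219 for *Cacna1h*, -0.005 to 0.113 for *Cacnb1*, -0.432 to 0.115 for *Cacnb2*, -0.324 to 0.023 for *Hcn2*, -0.646 to 0.134 for *Hcn4*, -0.243 to 0.009 for *Kcna4*, -0.121 to 0.056 for *Kcna5* and -0.048 to 0.129 for *Kcnab2*. It gave -0.520 to 0.106 for *Kcnj2*, -0.649 to 0.079 for *Kcnj3*, -0.014 to 0.401 for *Kcnk13*, -0.080 to 0.246 for *Kcnk6*, -0.262 to 0.260 for *Kcnmb1*, -0.570 to 0.064 for *Kcnn1*, -0.264 to 0.418 for *Kcnn4*, and -0.640 to 0.091 for *Scn4a*. The cause was not tested. Depth limits the 41 subunits that were not tested, whose means were at most 0.663 TPM.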
